A study of Mus musculus with 2 samples.

Results

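The genes described here build the machinery that copies DNA and the enzymes that supply its nucleotides. They were taken from a list of 55 gene symbols, and a probe set counted for a gene when the platform annotation gave that symbol alone. A probe set is a group of short oligonucleotides read together as 1 value. Of the 55 genes, 51 had a probe set, out of 12393 genes named on the array in all, and together they had 92 probe sets. Gins2, Dctd, Impdh2 and Chaf1a had none. The values come from 2 arrays of total RNA, labelled as murine bone from the femur of c57Bl/6 mice. The allograft sample and the autograft sample have 1 array each. In an allograft donor and host are genetically different animals of a species, whereas in an autograft they are the same animal. The labels do not give the age or sex of the animals, the time after grafting, the number of animals behind a sample or whether the strain was donor or host.

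With 1 array per graft type, no difference below has a replicate check or a test. The deposited intensities were used on their own scale, with 2% trimmed means of 500.2 for the allograft and 500.1 for the autograft. Intensities below 175.2, the median of all non-control values, were set to that floor before log2 was taken, and each gene was read from its brightest probe set. A log2 ratio is allograft minus autograft, so a positive value means a higher allograft intensity. Bone markers were present on both arrays: 8 of the 9 osteoblast and osteocyte genes with a probe set were above the floor. Ibsp, the bone sialoprotein of mineralising bone, read 8109 in the allograft and 7811 in the autograft, while Sost, a product of osteocytes, lay below the floor at 29.2 and 167.1.

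A chromosome is copied once per division because its origins are prepared in advance. The origin recognition complex and Cdc6 load a ring of MCM proteins with the help of Cdt1, and the ring is later turned into a running helicase by Cdc45 and the GINS proteins. Polymerases then copy both strands behind it, held on the DNA by the sliding clamp PCNA, while ribonucleotide reductase and salvage kinases supply deoxynucleotides. Many of these genes are transcribed around the start of DNA synthesis under E2F transcription factors. In femur, the marrow precursors of red cells and granulocytes and the chondrocytes of the growth plate are among the cells known to divide.

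Most of these genes had a higher intensity in the allograft sample. Of the 51 genes, 45 passed the floor on both arrays, 2 on the allograft array only and 4 on neither. Of the 47 above it on at least 1 array, 39 had a log2 ratio above 0 and 8 below 0, a share above 0 of 83.0% (95% Wilson interval 69.9% to 91.1%). The interval treats genes as independent draws, which genes of a pathway read on the same arrays are not. Over all 7833 named genes above the floor on at least 1 array, 40.4% had a ratio above 0. The median log2 ratio was 0.30 for the 47 genes and -0.08 for all named genes. For the 2 genes past the floor on the allograft array only, a ratio above 0 was fixed by the floor. Over the 45 genes past it on both arrays, 37 (82.2%) had a ratio above 0, against 41.4% of 7101 named genes. Their median was also 0.30, so the bounds did not set the median. In bulk tissue, more cells of a type and more RNA per cell cannot be told apart.

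At a fold of 2, 5 of the 47 genes (10.6%) were higher in the allograft: Mcm2, Rrm2, Cdc6, Dck and Rfc4. The same fold was reached upward by 0.868% of all named genes. Dck lay below the floor on the autograft array, so its ratio is a bound. Among the 45 genes past the floor on both arrays, 4 (8.89%) were 2-fold higher, against 0.887% of 7101 named genes. A single gene, Impdh1, was at least 2-fold lower, where 0.753% of all named genes were lower to that degree. Over all genes these were 68 higher and 59 lower, or 53.5% higher, and that split depended on the scaling, the floor and the choice of probe set. It was 66.9% higher when the arrays were centred on the 75th percentile and 72.3% after the trend with intensity was removed. It turned to 37.8% higher (146 against 240 lower) once the floor was set at the 25th percentile, and to 35.5% (236 against 428) with no floor and 16 added to each intensity. Under these 4 settings the counts among the replication and nucleotide genes were again 5 and 1. Without probe sets whose names mark shared sequences or variant transcripts, the split was 45.8% higher and the counts were 1 and 1. At 1.5-fold, 14 of the 47 genes (29.8%) were apart, 13 of them higher and Impdh1 lower. Of all named genes 10.6% were apart by that fold, 313 higher and 514 lower. Gins1, next below the 2-fold mark, stood at 1.79-fold.

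**Figure D1:**
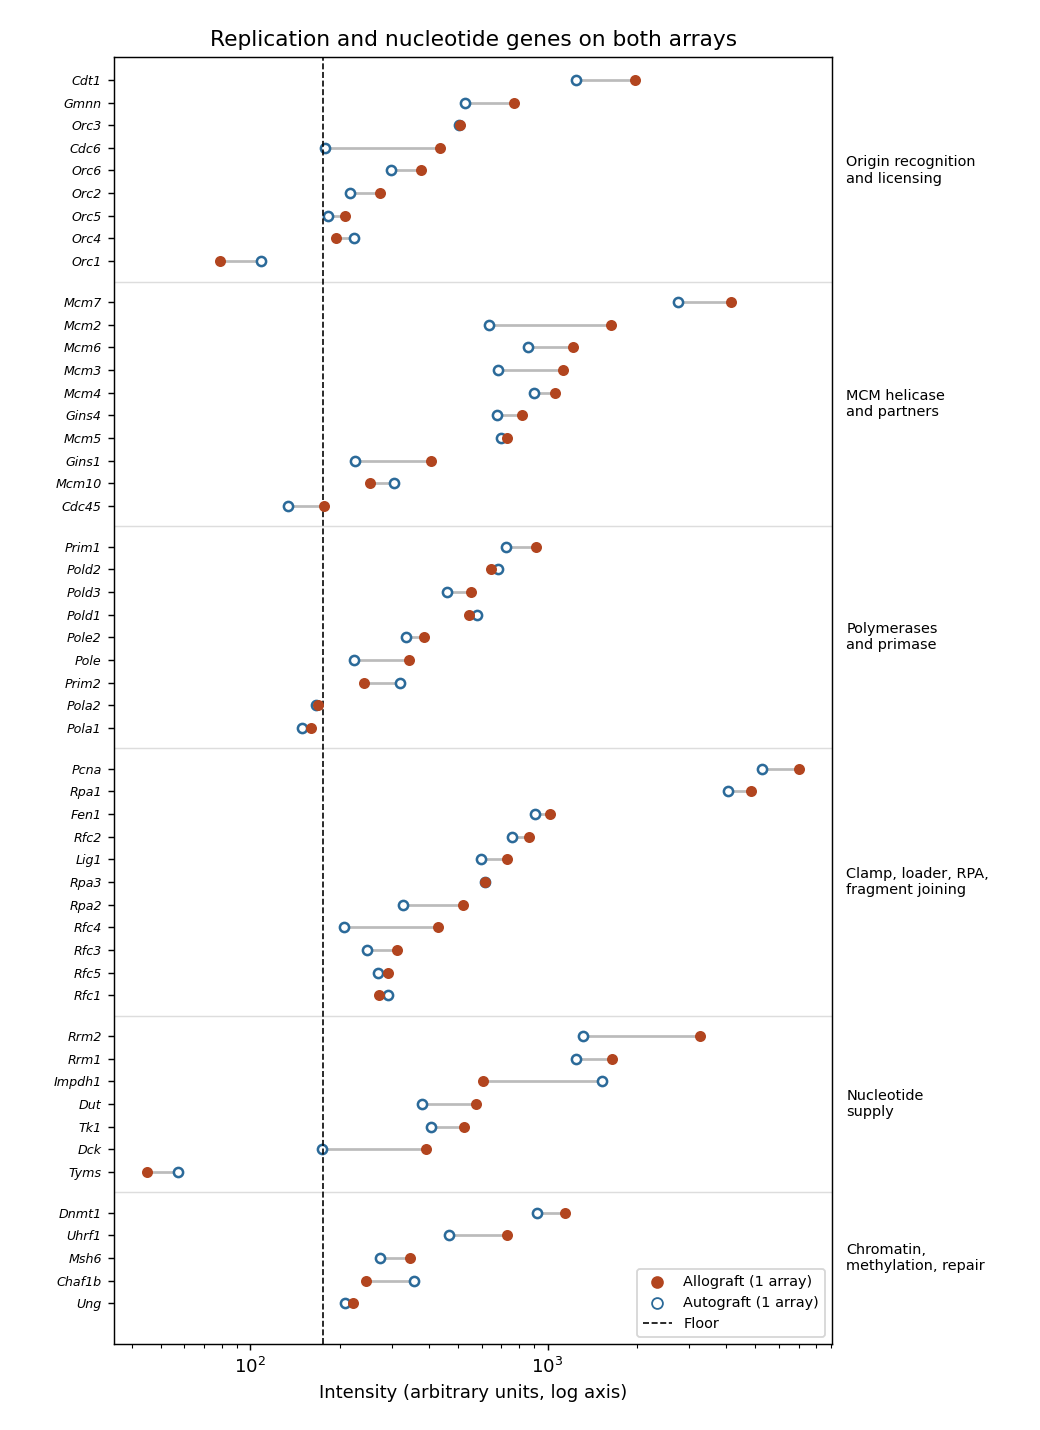
Intensity on a log axis of the brightest probe set of each of the 51 genes, grouped by role, with filled points for the allograft array and open points for the autograft array, 1 array each. The dashed line is the floor of 175.2. Most filled points lie to the right of their open partner, with the widest gaps for Mcm2, Rrm2, Cdc6, Dck and Rfc4, and Impdh1 lies the other way. Intensities of different genes come from different oligonucleotides and are not comparable.

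Among the genes that recognise and license origins, Cdc6 stood apart. Cdc6, the ATPase that brings the MCM ring to an origin, read 433 in the allograft and 178 in the autograft, a log2 ratio of 1.29. The autograft value lies just above the floor. Cdt1, its partner in loading, read 1969 against 1249 (0.66), and its second probe set stood at 0.22. Geminin, the inhibitor of Cdt1 encoded by Gmnn, had the same direction at 773 against 528 (0.55).

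The subunits of the origin recognition complex differed less between the arrays. Orc6 read 376 in the allograft and 298 in the autograft (0.34), and Orc2 read 274 against 216 (0.34). Orc5 read 209 against 182.5 (0.20), and Orc3 was level at 507 against 504 (0.01). Orc4 was lower in the allograft by its brightest probe set, 195 against 223 (-0.19), and higher by the next, at 0.21, so its direction depends on the probe set. Orc1 was below the floor on both arrays, at 79.1 and 108.8. In this group 7 of the 8 genes above the floor had a ratio above 0, with a median of 0.34. Only 1 of the 8, Cdc6, was 2-fold apart. Of all named genes 40.4% had a ratio above 0 and 0.868% were 2-fold higher.

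The helicase genes Mcm2 to Mcm7, whose products form the ring that unwinds DNA, all had a positive ratio, but of unequal size. Mcm2 read 1634 in the allograft and 634 in the autograft, a log2 ratio of 1.37, the highest of the 47 genes. The other, dimmer probe set had 450 against 334 and stood at 0.43, so the 2-fold difference rests on the brighter probe set. Mcm3 read 1126 against 680.4 (0.73), Mcm7 4129 against 2751 (0.59) and Mcm6 1221 against 860.1 (0.51). Mcm4 stood at 0.24 by its brightest probe set (1058 against 899) and at 0.73 by the other. Mcm5 was nearly level at 729 against 696 (0.07).

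Of the factors that turn the ring into an active helicase, Gins1, a GINS subunit, read 404 in the allograft and 225 in the autograft (0.84). Gins4, another GINS subunit, read 823 against 678 (0.28). Cdc45, which joins the helicase at firing, passed the floor on the allograft array but not on the other, with 176.5 against 134.1, so its ratio of 0.01 against the floor is a lower bound. Mcm10, a later firing factor, went the other way at 253 against 304 (-0.27). In all, 9 of the 10 helicase genes and partners above the floor had a ratio above 0, with a median of 0.39.

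The DNA around the transcription starts of these genes was searched for motifs. RefSeq promoter windows (build GRCm38.p6, 250 bases before and 50 after a transcription start) were found for 47 of the 55 genes, 61 windows in all. They were searched on both strands for exact matches to the E2F motifs TTTCGCGC and TTTGGCGC and to the CCAAT box, the site of the factor NF-Y. An E2F motif was present in 12 of the 61 windows (19.7%), against 1.55% of 8261 windows of named genes above the floor and 0.813% of all 32851 windows in the table. The 12 windows belong to 12 genes, so most of the genes had no match. In 7 of the 12 a match began before the start, and in Cdt1, Lig1, Mcm3, Mcm7 and Pole2 every match lay after it. CCAAT was present in 54.1% of the windows of the 47 genes, 36.8% of those of named genes above the floor and 37.4% of all. The median GC content was 61.3% in the first set, 60.7% in the second and 52.7% in the third. A match is a run of letters and was not tested as a binding site.

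The 250 bases before the start are given for 6 genes, 5′ to 3′ on the gene's own strand. Mcm6, Mcm5 and Uhrf1 are shown for their E2F matches, and Mcm2, Rrm2 and Cdc6 because they had the highest ratios. They were chosen after the windows had been searched. Capitals of 8 or more letters mark E2F matches and capitals of 5 letters mark CCAAT or its reverse complement. The capitals in Cdc6 mark a match to a wider motif described further on.
Mcm6 (chr1:128359706-128359955, minus strand): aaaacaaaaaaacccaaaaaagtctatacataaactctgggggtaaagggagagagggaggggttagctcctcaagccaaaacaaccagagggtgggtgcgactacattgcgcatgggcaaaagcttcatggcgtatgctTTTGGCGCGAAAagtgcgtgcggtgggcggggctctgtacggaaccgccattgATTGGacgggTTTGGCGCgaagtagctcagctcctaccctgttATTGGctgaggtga
Mcm5 (chr8:75109259-75109508, plus strand): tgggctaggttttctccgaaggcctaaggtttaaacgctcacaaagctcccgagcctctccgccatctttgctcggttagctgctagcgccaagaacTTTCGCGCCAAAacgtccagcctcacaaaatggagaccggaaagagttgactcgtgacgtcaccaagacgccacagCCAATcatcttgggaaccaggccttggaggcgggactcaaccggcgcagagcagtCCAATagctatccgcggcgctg
Uhrf1 (chr17:56304063-56304312, plus strand): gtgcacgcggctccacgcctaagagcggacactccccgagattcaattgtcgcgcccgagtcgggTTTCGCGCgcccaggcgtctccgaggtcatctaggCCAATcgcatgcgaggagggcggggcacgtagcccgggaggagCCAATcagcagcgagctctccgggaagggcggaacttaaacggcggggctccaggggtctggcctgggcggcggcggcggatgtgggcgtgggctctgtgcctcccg
Mcm2 (chr6:88898781-88899030, minus strand): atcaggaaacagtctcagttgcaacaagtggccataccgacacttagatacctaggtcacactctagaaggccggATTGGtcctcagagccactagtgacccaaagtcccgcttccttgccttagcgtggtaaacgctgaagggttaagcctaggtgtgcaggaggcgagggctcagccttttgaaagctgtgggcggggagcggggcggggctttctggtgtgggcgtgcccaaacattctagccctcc
Rrm2 (chr12:24708004-24708253, plus strand): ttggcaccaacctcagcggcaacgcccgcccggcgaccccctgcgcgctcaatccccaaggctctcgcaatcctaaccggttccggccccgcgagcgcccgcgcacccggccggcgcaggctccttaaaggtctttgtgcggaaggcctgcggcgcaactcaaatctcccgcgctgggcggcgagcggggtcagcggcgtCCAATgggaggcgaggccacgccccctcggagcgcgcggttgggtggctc
Cdc6 (chr11:98907901-98908150, plus strand): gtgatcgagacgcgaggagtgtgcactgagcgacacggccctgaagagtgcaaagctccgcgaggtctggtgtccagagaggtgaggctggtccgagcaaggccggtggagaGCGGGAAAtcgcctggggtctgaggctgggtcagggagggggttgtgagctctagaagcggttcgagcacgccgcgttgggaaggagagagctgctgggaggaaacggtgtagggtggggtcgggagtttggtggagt

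In Mcm6 the motif TTTGGCGC starts at positions -110 and -47 from the transcription start, and the first overlaps a match on the other strand at -106. In Mcm5 matches on the 2 strands overlap as well, at -153 and -149. The Uhrf1 window, 1 of 2 in the table for this gene, has a match at -185. Mcm2 and Rrm2 had a CCAAT box, at -175 and -50, and no match to the E2F motifs. None of the 6 genes at least 2-fold apart between the arrays had one in its windows. Adding TTTCCCGC and TTTGCCGC, chosen after the windows had been searched, raised the matches to 17 of 61 windows (27.9%), against 3.81% of windows of named genes above the floor. It gave Cdc6 a match, at -138. No match in a window says only that these letters are not there.

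The intensities can be set beside these sequences. The 10 genes with an E2F match that were above the floor all had a ratio above 0, between 0.07 (Mcm5) and 0.73 (Mcm3), with a median of 0.42. Of the 30 genes above the floor with a window and no match, 23 had a ratio above 0, with a median of 0.27, and these hold the 5 higher and the 1 lower gene at 2-fold. With the wider motif set 14 of 15 genes with a match and 19 of 25 without had a ratio above 0. The gene groups are small, and the difference between them was not tested.

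**Figure D2:**
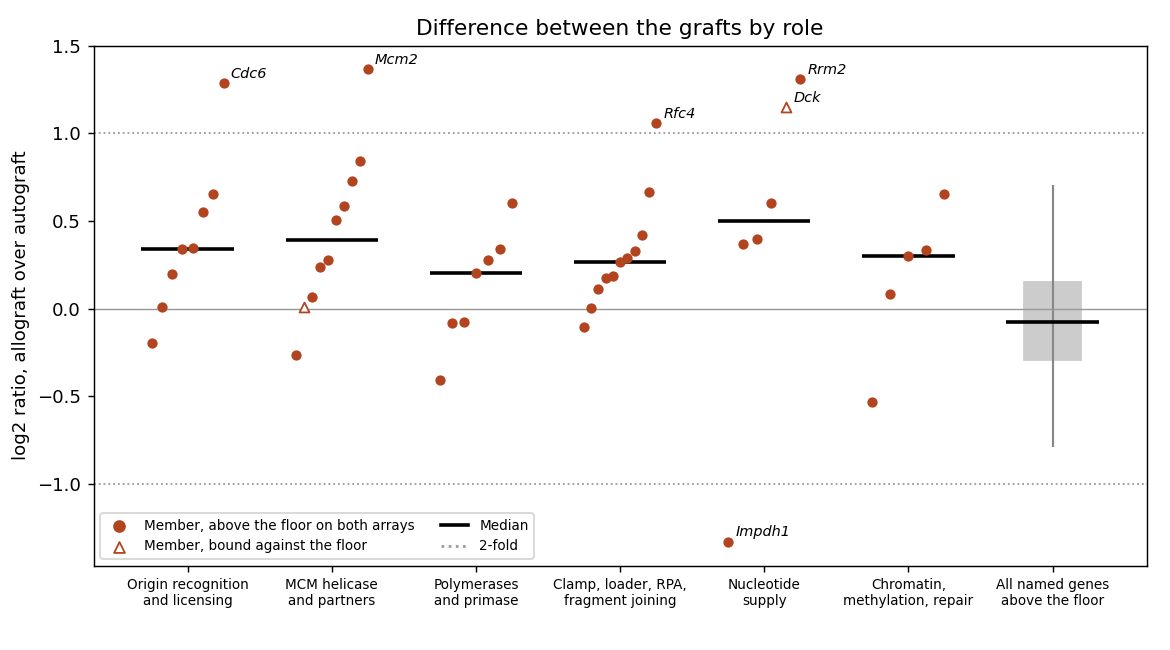
The log2 ratio of allograft over autograft for the 47 genes above the floor on at least 1 array, by role, with the median of each group as a black bar. Triangles are lower bounds, dotted lines mark 2-fold, and the grey box and line at the right give the central 50% and 95% of 7833 named genes. All 6 role medians, from 0.20 to 0.50, lie above the all-gene median of -0.08.

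Polymerase and primase genes had the lowest median of the role groups, 0.20 over 7 genes, with 4 above 0 and 3 below. Pole, the catalytic subunit of the leading-strand polymerase epsilon, was the highest of them at 341 in the allograft and 224 in the autograft (0.605). Prim1, the catalytic primase subunit that makes the RNA primers, read 918 against 726 (0.34), with a second probe set at 0.84. Prim2, the large primase subunit, was lowest at 241 against 319 (-0.41), although its other probe set stood at 0.21. Pold1, the catalytic subunit of the lagging-strand polymerase delta, and its partner Pold2 were close to level, both at -0.08. Pold1 read 545.0 against 577 and Pold2 646.5 against 683. Pold3 stood at 0.28 and Pole2 at 0.20. Pola1 and Pola2, of the polymerase that extends the primers, were below the floor on both arrays.

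In the group that holds polymerases on the DNA, protects single strands and joins the lagging-strand fragments, 10 of 11 genes had a ratio above 0. The median was 0.26. Pcna, the sliding clamp, read 7040 in the allograft and 5266 in the autograft (0.42). At that brightness the ratio of all genes also lies above 0, with a trend value of 0.20, so the gene lies 0.22 above the trend. Rpa1, the large subunit of the single-strand binding protein RPA, stood at 0.26 (4845 against 4034) where the trend was 0.13. Its partner Rpa2 read 518 against 326 (0.67) and Rpa3 was level at 618 against 616 (0.00).

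The clamp loader RFC has a large subunit, Rfc1, and smaller ones. Rfc4 read 429 in the allograft and 206 in the autograft, a log2 ratio of 1.06, and 372 against 260 by its second probe set (0.52). The other subunits were closer together: Rfc3 stood at 0.33, Rfc2 at 0.19, Rfc5 at 0.11 and Rfc1 at -0.10 (271 against 291). Lig1, the ligase that seals the fragments, stood at 0.29, and Fen1, the nuclease that trims their ends, at 0.17 with a second probe set at 0.50.

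Ribonucleotide reductase makes deoxynucleotides from ribonucleotides and needs a large subunit, Rrm1, and a small one, Rrm2, whose level follows the cell cycle. Rrm2 read 3260 in the allograft and 1316 in the autograft by its brightest probe set, a log2 ratio of 1.31. Its further probe sets read 721 against 289 (1.32) and 552 against 265 (1.06). Of the 16 genes with at least 2 probe sets past the floor on both arrays, Rrm2 alone had every such probe set 2-fold apart. Rrm1 read 1646 against 1249 (0.40), and its second probe set was level at 0.01.

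The salvage and thymidylate enzymes had ratios above 0 where they were measured. Dck, the kinase that salvages deoxycytidine, read 389 in the allograft and 174.2 in the autograft, which is below the floor, so it was at least 2.22-fold higher. A further probe set had 240 against 155 and gave a bound of 0.46, so the 2-fold call again rests on the brightest probe set. Dut, which removes dUTP and yields the precursor of thymidylate, read 574 against 379 (0.60), and Tk1, the thymidine kinase of dividing cells, 522 against 404 (0.37). Tyms, the thymidylate synthase gene, was below the floor on all 3 of its own probe sets. A probe set shared with its pseudogene Tyms-ps read 686.5 against 662, a ratio of 0.05.

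Impdh1 was the exception in this group. It encodes an isoform of the rate-limiting enzyme of guanine nucleotide synthesis and read 605.0 in the allograft and 1522 in the autograft, a log2 ratio of -1.33. It has 1 probe set, so no second reading was at hand, and the isoform gene Impdh2 had none. With it, 5 of the 6 genes of nucleotide supply above the floor had a ratio above 0, with a median of 0.50.

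Behind the fork, Uhrf1, which recognises hemimethylated DNA, read 733 in the allograft and 465 in the autograft (0.66). Dnmt1, the methyltransferase it recruits, read 1141 against 925 (0.30), with a further probe set at 960 against 488 (0.97). Msh6, a mismatch repair protein, read 343 against 272 (0.34), and Ung, which removes uracil from DNA, 221 against 209 (0.08). Chaf1b, a subunit of the histone chaperone CAF-1, was lower in the allograft at 245 against 355 (-0.53). In this group 4 of 5 genes had a ratio above 0, with a median of 0.30.

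**Figure D3:**
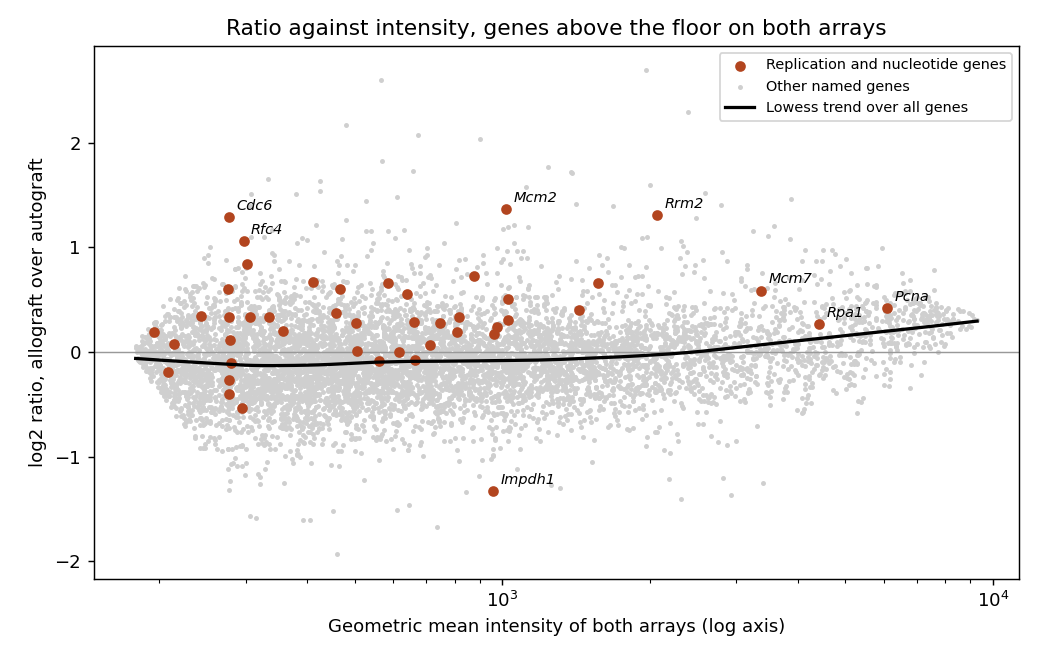
The log2 ratio of allograft over autograft against the geometric mean intensity of both arrays on a log axis, for the replication and nucleotide genes that passed the floor on both arrays and for the other named genes in grey. The black line is a lowess trend over all genes, which lies below 0 over most of the range and turns positive at high intensity. Most of the coloured points lie above it, and Impdh1 lies far below.

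The difference was as large when measured from the trend of ratio with intensity. The lowess trend ran from -0.13 to 0.30 over all genes and from -0.13 to 0.20 at the intensities of the 47 genes, with a median of -0.09 there. Measured from the trend, 42 of the 47 genes were above it, and their median was 0.38. For all named genes 3820 of 7833 were above the trend, with a median of -0.01.

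Probe sets of the same gene show how far readings of a gene differ within this pair of arrays. Among 65 probe sets of these genes that passed the floor on both arrays, 56 had a ratio above 0, with a median of 0.34. Among 9774 named probe sets 4192 did, with a median of -0.06. Of the 16 genes with at least 2 such probe sets, 13 had all of them above 0, Pold1 had all below 0, and Orc4 and Prim2 were split. The ratios of a gene's brightest and second brightest probe sets differed with an SD of 0.48 over these 16 genes and 0.44 over 1925 named genes. This spread is that of a difference between 2 readings, and it holds no variation between replicate samples. It therefore cannot show that any single gene is set apart from 0.

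**Figure D4:**
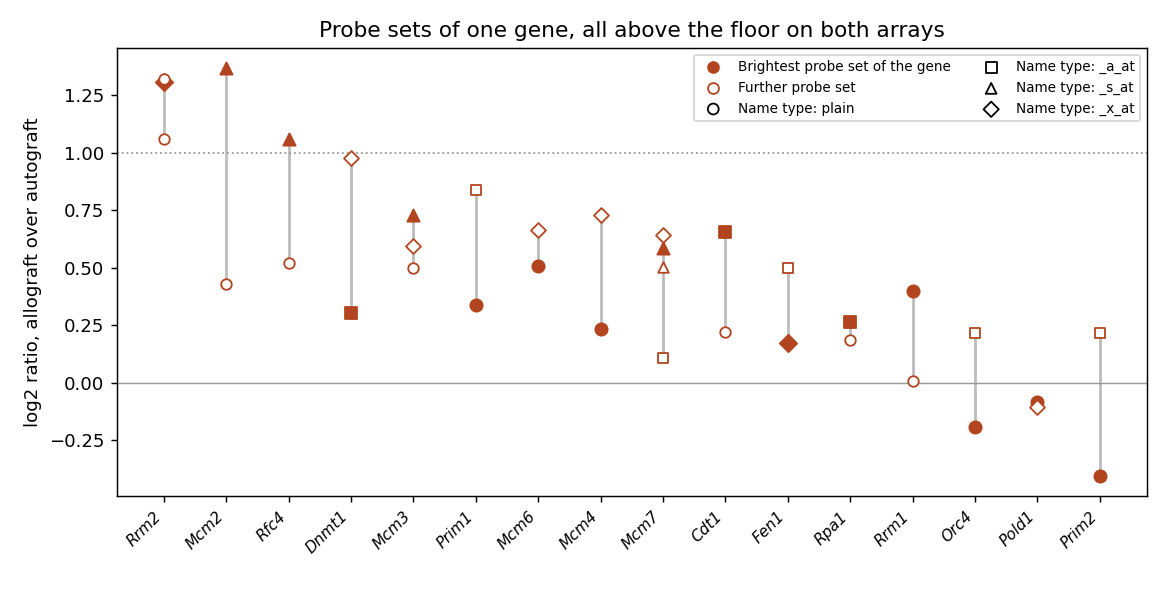
The log2 ratio of allograft over autograft of each probe set that passed the floor on both arrays, for the 16 genes with at least 2 of them, with the brightest filled and the marker shape giving the type of probe set name. All 3 probe sets of Rrm2 lie above the dotted 2-fold line, while Mcm2 and Rfc4 have 1 above and 1 below it.

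Genes of the same processes outside the list had lower medians. Of 21 further genes of the fork, its checkpoint and its histone chaperones that were above the floor, 15 had a ratio above 0, with a median of 0.18 and none 2-fold apart. Wdhd1, which couples helicase and polymerase, read 337 in the allograft and 215.0 in the autograft (0.65), and Topbp1, an activator of origin firing, 505 against 330.2 (0.61). Mcmbp, an MCM-binding protein, read 419 against 602 (-0.52), and Asf1b, a histone chaperone, 649 against 964 (-0.57). For 24 further genes of nucleotide synthesis the median was -0.03, with 10 above 0 and 14 below. Nme1, a nucleoside diphosphate kinase, was highest at 3889 against 2125 (0.87), and Adsl, of purine synthesis, lowest at 581 against 818 (-0.49). The difference from the median of 0.50 for the listed genes of nucleotide supply was not tested.

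The E2F family and its partners were split, with 8 of 16 genes above 0 and a median of 0.01. The list mixes genes that promote entry into DNA synthesis, such as cyclins, with genes that hold it back, such as cell cycle inhibitors. Its median is therefore not a measure of E2F activity. E2f8, an atypical E2F that represses its targets, read 591 in the allograft and 188 in the autograft (1.65). Ccne1, cyclin E1, which drives entry into DNA synthesis, passed the floor on the allograft array only, 259 against 157, with a bound of 0.56. E2f6 (730.3 against 1004, -0.46) and E2f5 (212.5 against 310.3, -0.55) were lowest.

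Erythroid, granulocyte and most skeletal muscle markers were also higher in the allograft. Of all named genes 40.4% had a ratio above 0, 0.868% were 2-fold higher and 0.753% were 2-fold lower. All 13 erythroid precursor genes with a probe set stood above 0 and 5 passed 2-fold, with a median of 0.88 and a summed intensity of 26330 in the allograft and 14319 in the autograft. All 13 granulocyte genes had a ratio above 0, with a median of 0.39 and sums of 61999 and 48432. B cell precursor genes were split, 4 of 7 above 0, with a median of 0.16 and sums of 3649 and 3206. Rag1, Rag2 and Pax5 were below the floor. Of the 6 T cell genes with a probe set, Cd3e, Cd3d, Cd3g, Cd8a and Cd4 were below the floor on both arrays, and Thy1, which other cells also express, read 1610 in the allograft and 1843 in the autograft (-0.20). The sums of the T cell genes were 1810 and 2178. Of 8 cartilage genes above the floor 7 had a ratio below 0 and 2 were 2-fold lower. Their median was -0.57, with sums of 21041 and 25933. Sox9, Matn1 and Col9a2 were below the floor. Osteoblast and osteocyte genes were split, 3 above 0 and 5 below, with a median of -0.38 and sums of 23155 and 20539. The collagen genes Col1a1, at 4994 in the allograft and 771 in the autograft (2.70), and Col1a2, at 5111 against 2362 (1.11), were 2-fold higher. Alpl, the alkaline phosphatase of bone, was 2-fold lower at 2197 against 5241 (-1.25), and Dmp1, of osteocytes, read 677 against 1204 (-0.83). Skeletal muscle genes were above 0 in 8 of 10 and 2 were 2-fold higher, with a median of 0.43 and sums of 52315 and 40074. Each sum adds intensities of different probe sets, so its brightest genes weigh most. The part of any of these cell types in the values above was not tested. RNA quality controls also differed: beta-actin control signal at the 3′ end divided by that at the 5′ end came to 1.77 in the allograft and 1.19 in the autograft, and for Gapdh to 0.194 and 0.0349. The Gapdh ratios rest on 3′ readings far below the 5′ ones, 1577 against 8122 in the allograft and 233 against 6671 in the autograft. They are therefore not a plain measure of RNA quality. The part of RNA quality was not tested either.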

How the data were processed

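Total RNA of 1 allograft and 1 autograft femur sample was read on 1 oligonucleotide array each. The deposited values are linear intensities, 1 per probe set and array, and the trimmed means show that they were already scaled. The software, background correction and scaling by the authors are not given in sources used here. Of 22690 probe sets 64 were controls, 20380 of the rest had 1 gene symbol, and 691 with several symbols and 1555 unlisted ones were not named. All 51 Entrez identifiers gave the same symbol in RefSeq (GRCm38.p6). A gene was read from its probe set with the highest mean intensity. The floor was the median of all non-control values. A ratio of a gene above the floor on 1 array only is a bound. The members, lists and settings were chosen with earlier results of these data known, and lists were not tested.

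Full intensities were given for genes 2-fold apart, the highest and lowest 2 of each role, split probe sets and bounds, and for other listed genes where they complete a complex. Of other lists the highest and lowest 2 were named, of which the text gives a selection, and Ibsp, Sost and markers below the floor were named as checks. Alternatives were quantile normalization, 2 centrings, lowess (span 0.4), other floors, log2 of intensity plus 16, other choices of probe set and folds of 1.5 and 4. The counting step was tested on simulated data with shifts larger than 2-fold in genes well above the floor. That test does not show how reliable 2-fold calls near the floor are. Promoter motifs were exact matches, and TTTCCCGC and TTTGCCGC were added after the data were seen. The tools were matplotlib 3.10.9, statsmodels 0.14.6, scipy 1.17.1, pandas 2.3.3 and numpy 2.4.6 under Python 3.11.15. The number of arrays limits the precision.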

Additional observations from a re-analysis of the deposited data

How the results depend on the processing

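The median log2 ratio of the listed genes stayed between 0.28 and 0.38 under every alternative, and lay 0.33 to 0.42 above the median of all named genes. The share above 0 ran from 80.4% to 89.4%. A total of 39 genes had a ratio above 0 in every setting that gave them a value. Chaf1b, Impdh1 and Mcm10 were below 0 throughout, and Orc4, Pold1, Pold2, Prim2 and Rfc1 changed side. Quantile normalization, both centrings and lowess raised the median of all named genes, from -0.08 to between -0.03 and -0.01. Genes with 1 probe set could not change with the choice of probe set. Staying above 0 was therefore partly built in. The count of 5 genes at least 2-fold higher depended on the probe set. It was 2 with the mean over probe sets or the dimmest probe set. It was 1 of 38 genes, Rrm2, without probe sets whose names mark shared sequences or variant transcripts. It was 2 of 24 genes with the floor at the 75th percentile, where fewer genes were above it. Among the 45 genes past the floor on both arrays, which leave out Dck, it was 4. At 1.5-fold it was 13. At 4-fold it was 0, and the count of lower genes was 0 as well. Rrm2, Cdc6 and Impdh1 were 2-fold apart in every setting with a value for them. Cdc6 and Impdh1 have 1 probe set each, so the choice of probe set could not change them. Cdc6 also had no value with the floor at the 75th percentile or without marked probe sets. Mcm2 and Rfc4 were under it with the mean, the dimmest and the unmarked probe sets (lowest 0.43 and 0.52), and Dck with the mean and the dimmest (lowest 0.46). Other scalings left both counts at 5 and 1. No paired analysis was possible because each graft type has 1 array. Values near the floor, as for Cdc6 in the autograft, are limited by signal over background.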

Other observations

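Genes outside the list that carry the same E2F motifs in a promoter window were read on the arrays as well. Of 147 such named genes 109 were above the floor. Their median log2 ratio was -0.005, 48.6% of them had a ratio above 0, none was 2-fold higher in the allograft and 2 were 2-fold lower. Named genes outside the list with a window and no match had a median of -0.08 over 6211 genes, with 39.7% above 0. With the wider motif set, 281 genes with a match had a median of -0.08. The 10 listed genes with a match had a median of 0.42. No test was made between these sets.

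Within a gene, probe sets marked _s_at or _x_at tended to read a higher ratio than plain ones. The name _s_at marks oligonucleotides shared by several transcripts, and _x_at marks sets with some that resemble other sequences. Of 7 listed genes with both kinds above the floor on both arrays, 6 had the higher ratio in the marked kind: Mcm2, Rfc4, Mcm4, Mcm3, Mcm6 and Rrm2. The median difference was 0.16 for these 7 genes. Over 639 named genes with both kinds it was 0.13, with the marked kind higher in 61.7%. The kind marked for variant transcripts of a gene (_a_at) was higher than the plain kind in 5 of 5 listed genes, Prim2, Prim1, Cdt1, Orc4 and Rpa1, with a median difference of 0.44. Over 508 named genes that difference was 0.10, with 60.0% higher. Cdc6 and Dck have no plain probe set to set beside theirs. This comparison was made after the values were seen. The cause was not tested.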
